A study of Drosophila melanogaster with 2 samples.

Results

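The genes cbt and ush lie together near the tip of chromosome arm 2L of Drosophila melanogaster, and the strongest reproducible region of an abrupt (ab) ChIP-seq experiment falls just upstream of cbt, within an intron of ush. The locus was chosen for that reason, so its members were selected on the measured signal, and the signals below describe it without a test. It was taken as the window from 5 kb outside the lower gene end to 5 kb outside the upper one, at 471220 to 545560 on 2L (dm6 build, 74.3 kb). Of the 13945 protein-coding genes on the main arms, cbt and ush are 2. Summits inside the window numbered 7 of 1664 in the list of reproducible peaks, 27 of 21376 in the list called on the pooled replicates, 29 of 30000 in replicate 1 and 44 of 30000 in replicate 2.

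Chromatin immunoprecipitation and sequencing (ChIP-seq) recovers the DNA that a chosen protein occupies and reports regions where it is enriched over a control. The protein here was ab fused at its C-terminus to a green fluorescent protein (eGFP), in the stable transgenic line ab-GFP. The labels describe the pulldown as made with an antibody against GFP, although their antibody field names ab, so whether untagged ab was also recovered cannot be told from them. Whole embryos of pooled sex, aged 0 to 24 hours, gave 2 biological replicates, which form the single group; no untagged embryos were analysed here. Each signal is therefore an average over all cell types and over the whole of embryogenesis, and the promoter driving the tagged gene is not stated in the labels. The signal of a region is the authors' own score against the control, on a scale the files do not state. Read depth was unknown, and the 2 replicates were called separately, so their values stand side by side without an SD.

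Abrupt is a transcription factor with a BTB domain and zinc fingers, known for shaping dendrites and for the targeting of motor axons. Cabut, the product of cbt, is a zinc-finger transcription factor related to the Sp and Krüppel-like factors, which acts in dorsal closure of the embryo and in the response to sugar. U-shaped, the product of ush, is a zinc-finger cofactor that binds GATA factors such as Pannier and restrains them, with known roles in the amnioserosa, the heart, the blood lineage and the thoracic bristles. Both genes are linked to signalling by Dpp, the fly bone morphogenetic protein.

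The genes overlap. In the Ensembl annotation ush (FBgn0003963) runs from 476220 to 540560 on the plus strand, over 64341 bp, and has 4 transcription start sites (TSSs). Transcripts ush-RD and ush-RE start at 476220, ush-RB at 490835, ush-RA at 523466 and ush-RC at 523736. The shorter cbt (FBgn0043364) runs from 476446 to 479688 on the minus strand, over 3243 bp, and its 3 transcripts share the TSS at 479688. All of cbt thus lies inside the first intron of ush-RD and ush-RE and is read in the opposite direction. The window also takes in MED15, the RNA genes lncRNA:CR46258 and lncRNA:CR46259, lwr and Spp, and the ends of CG4297, Ets21C and nAChRbeta3.

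The sequence of the strongest peak is given first, because its middle is low in GC and its shoulders repeat a short word. All sequences are from the RefSeq assembly of the dm6 build, read 5′ to 3′ on the plus strand, so cbt is transcribed against the direction of reading. Capitals in the next 3 sequences mark GGGTAT or, on the other strand, ATACCC. The word was picked after the sequence of the strongest peak had been seen.
Strongest peak, summit 481067, chr2L:480917-481216, plus strand: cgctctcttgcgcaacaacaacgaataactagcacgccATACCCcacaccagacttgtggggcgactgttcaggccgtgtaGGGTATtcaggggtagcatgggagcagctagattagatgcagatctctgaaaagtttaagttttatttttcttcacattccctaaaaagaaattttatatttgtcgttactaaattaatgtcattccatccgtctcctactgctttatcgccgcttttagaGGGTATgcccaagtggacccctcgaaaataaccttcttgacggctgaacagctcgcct
Peak 41.1 kb away in ush, summit 522120, chr2L:522020-522220, plus strand: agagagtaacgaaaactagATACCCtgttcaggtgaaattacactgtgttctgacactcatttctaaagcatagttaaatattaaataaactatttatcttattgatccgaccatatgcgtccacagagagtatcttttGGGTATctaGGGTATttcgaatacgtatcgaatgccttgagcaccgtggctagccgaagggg
Peak between CG4297 and MED15, summit 472453, chr2L:472403-472503, plus strand: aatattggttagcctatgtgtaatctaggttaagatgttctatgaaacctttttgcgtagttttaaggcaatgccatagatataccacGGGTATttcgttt

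Within 150 bp of its summit the strongest peak held GGGTAT 3 times. The first base of the match lay 112 bp before the summit on the minus strand, and 69 bp before and 92 bp after it on the plus strand. The peak at 522120 also held 3 matches, 81 bp before the summit on the minus strand and 39 and 48 bp after it on the plus strand. The peak at 472453 held 1, 38 bp after its summit, and the other 4 locus peaks held none. Of the 1657 reproducible peaks outside the locus, 12.9% had at least 1 match in a window of that size, against 8.72% of 3314 flank windows centred 300 bp to either side. Of those 1657 peaks, 8 (0.483%) had 3 or more. Like the word, the window of 150 bp was not planned before the data were seen, and the result depended on it. Within 50 bp of its summit the strongest peak held no match, while 5.37% of the other peaks held at least 1. Within 100 bp it held 2, and 1.45% of the other peaks held as many or more. The 0.483% thus rests on the choice of word and window. Flank windows of the locus peaks held the word in 1 of 14. These matches describe letters only, and no factor is assigned to them.

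Short words rich in A and T differed most between summits and flanks over the experiment. The 10 words of 6 bases with the largest difference between summit windows (50 bp either side) and flank windows, taken over the peaks outside the locus, are nearly all runs of A and T. Each was counted with its reverse complement, and many overlap each other by several letters. AAAAAT was present in 30.1% of the other peaks (21.3% of their flanks), AAAATA in 28.5% (19.9%), TTAAAA in 25.8% (16.1%), TAAAAA in 25.8% (18.1%) and AAAATT in 23.2% (15.8%). ATTTTA was in 22.3% (14.03%), ATTTAA in 21.9% (12.7%), TTTAAA in 15.3% (8.36%) and AAATAT in 24.98% (14.8%). ACAGTG, the single word of mixed composition, was in 12.5% and 5.10%. Capitals below mark any of the 10 words within 50 bp of 4 locus summits. They were picked for contrast, with the strongest peak, both other peaks that hold 4 of the words, and the peak that holds none.
Strongest peak, summit 481067, chr2L:481017-481117, plus strand: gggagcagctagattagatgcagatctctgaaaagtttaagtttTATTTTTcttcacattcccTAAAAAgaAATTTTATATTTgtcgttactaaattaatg
Peak next to cbt, summit 480055, chr2L:480005-480105, plus strand: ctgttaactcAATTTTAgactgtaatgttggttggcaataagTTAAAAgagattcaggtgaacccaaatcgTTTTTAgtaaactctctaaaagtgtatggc
Intron of ush, summit 516144, chr2L:516094-516194, plus strand: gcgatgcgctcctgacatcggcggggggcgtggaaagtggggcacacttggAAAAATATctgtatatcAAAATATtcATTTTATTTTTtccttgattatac
Intron of ush, summit 485819, chr2L:485769-485869, plus strand: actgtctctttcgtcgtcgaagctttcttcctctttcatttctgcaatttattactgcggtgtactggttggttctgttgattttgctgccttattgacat

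The strongest peak held 6 of the 10 words, and its capitals all lie from the last few bases before the summit onward. As many words or more were found at 8.45% of the other peaks, whose median was 2, and 23.6% of them held none. In order along the chromosome the 7 locus peaks held 1, 4, 6, 0, 2, 4 and 2 of them. ACAGTG was at no locus summit within 50 bp.

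Base composition dipped at the strongest summit. The GC content within 50 bp of it was 28.7%, against 37.6% and 58.4% in its flanks. At the neighbouring peak at 480055 it was 33.7%, with 65.3% and 62.4% on either side. The peaks at 516144 (42.6%, flanks 58.4% and 54.5%) and 522120 (33.7%, flanks 51.5% and 43.6%) also lay below both flanks. The peaks at 472453, 485819 and 490281 did not. Outside the locus the median was 37.6% at summits (interquartile range 31.7 to 43.6%) and 44.6% in flanks, and 51.8% of 1657 summits lay below both flanks, beside 4 of 7 here. A GC content as low as that of the strongest peak was found at 14.8% of the others.

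**Figure D1:**
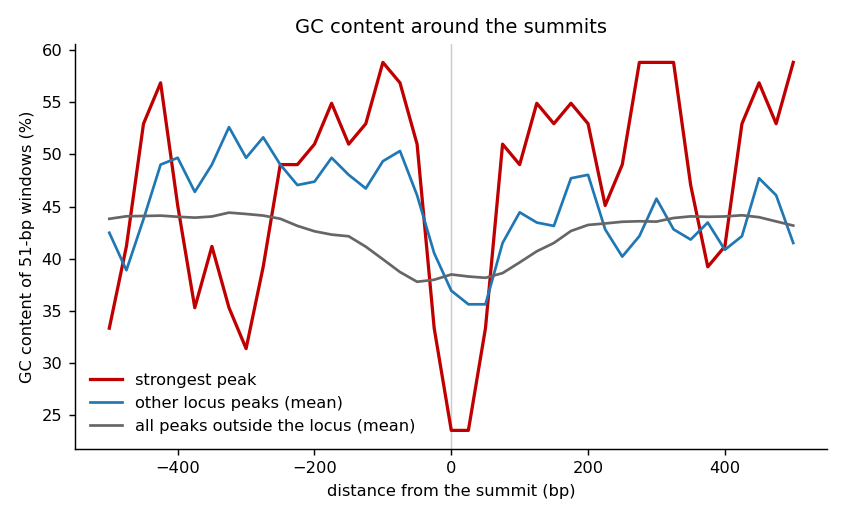
GC content in percent of 51-bp windows (vertical axis) against distance from the summit in bp (horizontal axis), for the strongest peak, the mean of the other locus peaks and the mean of all peaks outside the locus. The strongest peak drops to 23.5% at its summit, and the mean curves drop less. Its curve is a single sequence, which varies more than a mean, and it also falls to 31.4% at −300 bp.

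A set of 10 motifs of known factors was looked for, in either orientation, in the windows of 50 bp to each side of the summits. GAGAG, the GAGA factor word, alone was found, at 480055 and 522120, and it was in 11.3% of the other peaks and 16.5% of their flanks. No locus peak held the E-box words CACGTG (1.21% of the other peaks) and CAGCTG (4.16%), the GATA word TGATAA (8.39%), the AP-1 word TGACTCA (0.905%) or the Zelda word CAGGTAG (0.483%). The same was true of the DREF word TATCGATA (1.87%), the Sp word GGGCGG (2.17%), the Krüppel-like word GGGTG (9.17%) and the repeat TGTGTG (7.42%). The strongest peak thus held none of the 10. Within 100 bp of the summit 6 of the 7 peaks held at least 1 motif, and the strongest still held none. Longer windows hold more words at any site, and GAGAG then reached 25.5% of the other peaks, GGGTG 18.9% and TGTGTG 18.5%. The share of the other peaks with at least 1 of the 10 is not given here. The 6 of 7, and the lack of any at the strongest peak, therefore cannot be set against a usual rate.

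The strongest peak spanned 480881 to 481311 with its summit at 481067, 1379 bp upstream of the cbt TSS and inside the first intron of ush-RD and ush-RE. The pool gave it a signal of 1007, replicate 1 435.5 and replicate 2 551.1. The last 2 values are 50.2 and 48.1 times the medians of the replicate lists, so the replicates placed it at almost the same height above their own typical region. It ranked first in the pooled list and in replicate 2, and second in replicate 1. There the peak at CG14100 was higher, with 493.7. The pooled signal was 1.25 times that of CG14100, the next region in the list (802.5), and 13.4 times the median of the reproducible list (75.1). In replicate 2 the corresponding ratio was 1.77, and in replicate 1 it was 0.882. Replicate 1 alone did not place the locus first.

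The second strongest peak of the locus stood 1012 bp from the first, nearer to cbt. It spanned 479995 to 480124, with its summit at 480055, 367 bp upstream of the cbt TSS, and had a pooled signal of 156.5 (place 153 in the list). Replicate 1 gave 88.9 there and replicate 2 gave 28.6. This was the largest gap in favour of replicate 1 among the 7 peaks. At 130 bp it was also narrow, where most regions of the pooled list are 510 bp wide. Narrow regions made up 189 of the 1664 reproducible peaks (11.4%) and had a median signal of 186.8, against 71.0 in the others. The strongest peak, at 431 bp, was the other narrow region of the locus. At 480055 the pooled signal was 1.33 times the sum of both replicate signals. At the other 6 peaks that ratio lay between 0.909 and 1.07, and outside the locus its median was 1.01, with 5 to 95% of peaks between 0.877 and 1.21.

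Inside cbt itself no reproducible summit was found. The pooled list held 479331, 357 bp downstream of the cbt TSS, with a signal of 32.0, and 477471, with 18.1. The first of these was the strongest locus region below the threshold of the reproducible list. That threshold fell at 51.8, the value of both the weakest reproducible peak and the strongest region left out. The weakest reproducible peak of the locus had 52.9, just inside it, and 20 pooled regions of the window lay below it. Within 1 kb of the cbt gene body there was thus 1 reproducible peak, that at 480055, because the strongest peak lay farther upstream.

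The third peak in height, at 472198 to 472707, belonged to neither gene. Its summit at 472453 lay 253 bp upstream of a TSS of CG4297 and 560 bp upstream of that of MED15, which encodes a Mediator subunit. It had a signal of 115.5 in the pool, and 46.3 and 66.7 in replicates 1 and 2. A further peak stood 460 bp outside the window, at 470505 to 471014 within CG4297, with a pooled signal of 120.6 and 49.6 and 67.7 in the replicates. Beyond it the next reproducible peaks were 29076 bp from the window on that side (93.4) and 28921 bp from it on the other, at cold (89.2).

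The remaining 4 peaks were weak and lay within ush. Their pooled signals ran from 52.9 to 57.7, all below the median of the reproducible list. The peak at 485564 to 486073 (summit 485819, signal 52.9) had 11.1 in replicate 1 and 43.7 in replicate 2. Its summit in replicate 1 was placed at 485975, and a second region of 7.92 was called there at 485623, so replicate 1 had no summit at the same point. The peak at 490026 to 490535 (summit 490281, signal 57.7) had 22.1 and 33.0, and lay in an exon that belongs to the 5′ UTR of ush-RE. The peak at 515889 to 516398 (summit 516144, signal 54.4) had 28.6 and 22.2. The peak at 521865 to 522374 (summit 522120, signal 57.5) had 45.3 in replicate 1 and 18.0 in replicate 2. Of these 4, the first was mainly a replicate 2 region and the last mainly a replicate 1 region.

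**Figure D2:**
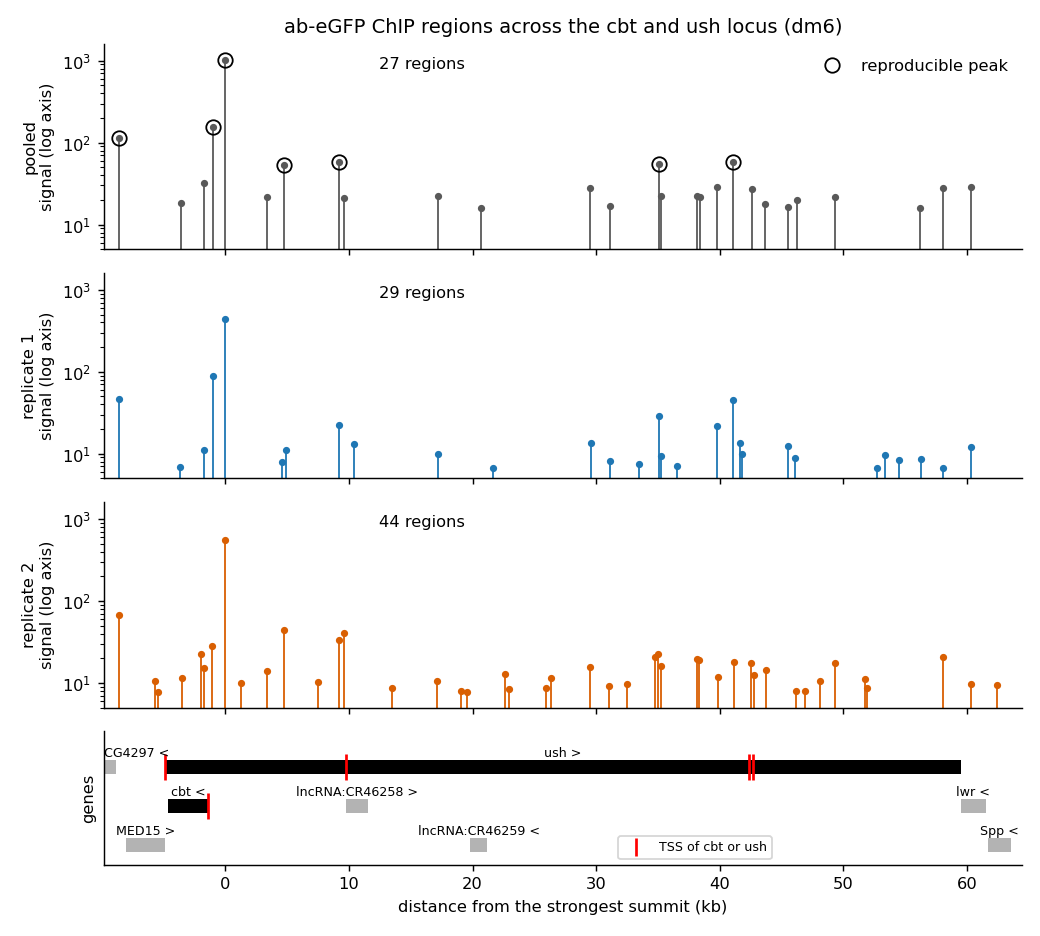
Signal of each region (vertical axis, log scale) at its summit, by distance from the strongest summit in kb (horizontal axis), for the pooled list and both replicates, with gene bodies below (arrows give the strand, red ticks the TSSs of cbt and ush). The tallest region at 0 kb, with 1007 in the pooled list, is shared by all 3 lists, and the other 6 circled reproducible peaks are at 157 or lower.

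All 6 reproducible summits within ush fell in the first intron of ush-RD, which spans 476332 to 525391 (49060 bp). Seen along ush-RE, 3 of them lay in its first intron of 13185 bp, 1 in the exon named above and 2 in its second intron of 34033 bp, which is also the first intron of ush-RB. The intron from 525437 to 536022 (10586 bp) held no reproducible summit and 3 pooled ones. From 490281 to 516144 there was a stretch of 25863 bp without a reproducible peak, the longest gap between neighbours in the locus. The other gaps ran from 1012 to 7602 bp.

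No reproducible summit lay within 500 bp of any ush TSS. The nearest was the peak at 490281, 554 bp upstream of the ush-RB start. In the relaxed lists the starts differed. At ush-RB, whose start is also that of lncRNA:CR46258, a pooled region of 21.2 had its summit 191 bp upstream. Replicate 2 had a region of 40.1 there, 132 bp upstream, and it was the strongest region of that replicate in the locus without a match in replicate 1. Near ush-RA and ush-RC a pooled region of 27.1 had its summit 25 bp upstream of the ush-RC start. Replicate 2 had 17.2 and 12.4 there, and replicate 1 had no summit within 500 bp. The start of ush-RD and ush-RE had no pooled summit closer than 1251 bp.

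By position, 2 of the 7 reproducible peaks were at promoters, meaning no more than 500 bp from the closest TSS, 4 were in introns and 1 in a 5′ UTR exon. Over all reproducible peaks 941 (56.6%) were at promoters, 511 (30.7%) in introns and 9 (0.541%) in 5′ UTRs. With promoters of 200 bp none of the 7 counted as a promoter peak, since both lay between 250 and 370 bp upstream.

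The replicates were then set against each other over all members. Every reproducible peak of the locus, 7 of 7, had a summit within 200 bp in both replicates, as did 95.6% of the whole list. Both replicates had entered the pooled call from which that list comes. With summits within 100 bp the count was 6 of 7, since the replicate 1 summit for 485819 lay at 485975. With 50% reciprocal overlap of the regions it was also 6 of 7. After division by the median of each list, the log2 ratio of replicate 1 to replicate 2 was 0.06 at the strongest peak. On the raw signals it was −0.34, so which replicate was higher depended on the scaling. At the other peaks the sign was the same with either scaling. It was 2.04 at 480055, 1.73 at 522120 and 0.77 at 516144. It was −0.13 at 472453, −0.18 at 490281 and −1.57 at 485819.

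Over 1583 matched peaks outside the locus the same ratio had a median of 0.35, an interquartile range of −0.15 to 0.85 and a 5th to 95th percentile range from −1.21 to 1.70. The peaks at 480055 and 522120 lay above that range and the peak at 485819 below it. The strongest peak lay within the quartiles, at the 33.8th percentile. Over all matched peaks the SD of the log2 ratio was 0.88, or 1.84-fold, so the gaps at 472453, 490281, 516144 and the strongest peak were smaller than it, and those at 480055, 485819 and 522120 were larger. Spearman's rho of both replicates over the 7 peaks was 0.286, given as a description.

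**Figure D3:**
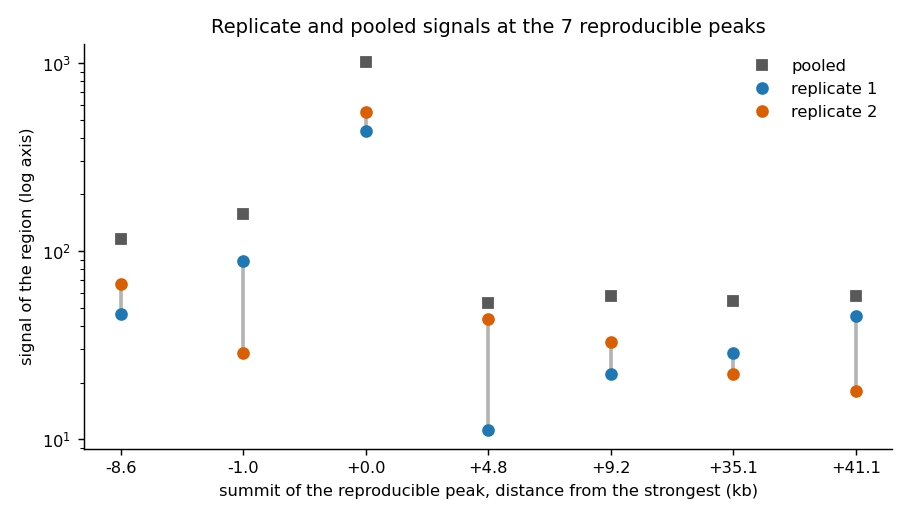
Signal (vertical axis, log scale) of the 7 reproducible peaks in the pooled list and in both replicates, ordered along the chromosome by distance from the strongest summit in kb. The replicate values are close at the strongest peak (435.5 and 551.1) and farthest apart at 485819 (11.1 and 43.7) and 480055 (88.9 and 28.6).

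**Figure D4:**
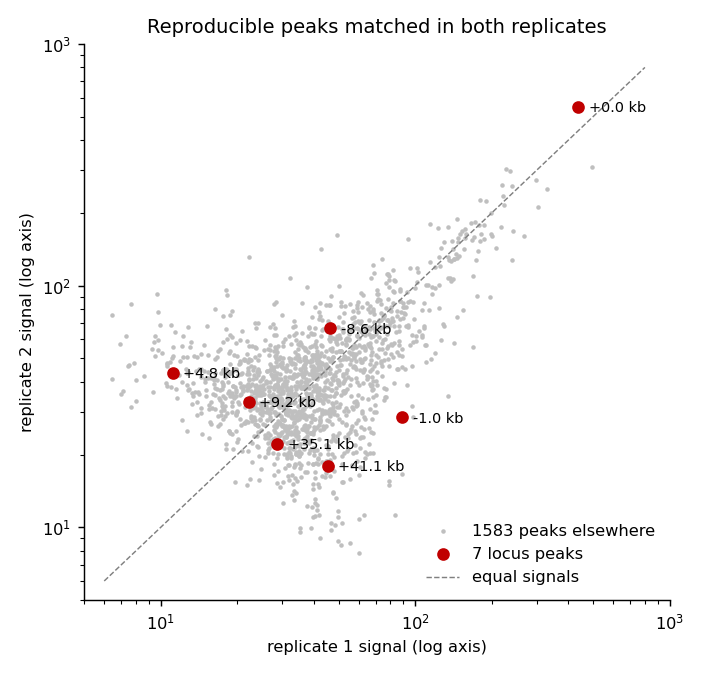
Signal in replicate 2 against signal in replicate 1 (both log axes) for the reproducible peaks matched in both, with the 7 locus peaks marked by their distance from the strongest summit and a dashed line of equal signals. The strongest peak lies apart at the upper right, and the other 6 lie among the 1583 peaks elsewhere.

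Among the weaker regions, 17 of the 29 of replicate 1 (58.6%) had a summit of replicate 2 within 200 bp, beside 28.4% of the whole replicate 1 list. In the other direction 16 of the 44 of replicate 2 (36.4%) were matched, beside 29.9%. Neither share was tested, since the locus was selected on its signal and holds strong regions. The strongest unmatched region of replicate 1 had 13.3, at 522705, and after the region of 40.1 the next of replicate 2 had 22.2, at 479078 within cbt. Of the 27 pooled regions 17 were matched in both replicates, beside 8563 of all 21376 pooled regions. Spearman's rho was 0.652 over the 17 and 0.498 over the 8563. The 17 include the peak that the locus was chosen for, so the order of these values was not tested either.

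The locus was chosen for its strongest peak, which made up a large share of its signal. This peak held 67.1% of the summed signal of the 7 reproducible peaks (1501) and 51.6% of that of the 27 pooled regions. In replicates 1 and 2 its share was 48.6% and 44.1%. In windows of the same length centred on each summit, its share of the reproducible signal was 64.4%. That was below CG14100 (71.0%), Lk6 (73.9%), Chro (83.7%), CG1888 (91.0%) and Ugalt (100%), the next strongest peaks of the list. In the pooled list 7 of the 27 locus regions were in the reproducible list, beside 7.78% of all pooled regions, but the rule fixed at least the first of them.

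**Figure D5:**
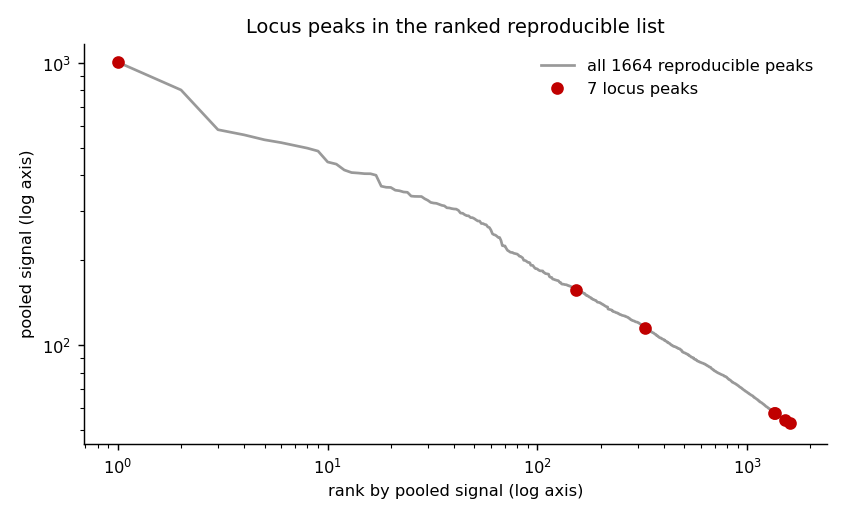
Pooled signal against rank (both log axes) for all 1664 reproducible peaks, with the 7 locus peaks marked. The strongest is at rank 1, the next at ranks 153 and 327, and the remaining 4 near the end, from rank 1344 to 1601.

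The number of peaks was set beside other places of the genome, again as a description. Of 1799 adjoining windows of the same length that tile the main arms, 14 (0.778%) held 7 or more reproducible peaks, and 1 of these 14 overlaps the locus itself. The median window held 0 and the richest 14. In the 1797 windows that do not overlap the locus, summed signal reached at most 1297, below the 1501 of the locus. The 1501 includes the 1007 of the peak that the locus was chosen for, so that order was largely set by the choice. In the pooled list the locus held 27 regions, the median window 11, and 81 windows (4.50%) as many or more. With its body and 1 kb to either side, ush held 6 reproducible peaks, as did 0.0574% of protein-coding genes (8 of 13945, ush included) with that number or more, and cbt held 1, as did 13.2% with at least that. The 6 of ush include the summits at 480055 and 481067, which lie nearest to the cbt TSS. The first is also the 1 peak of cbt, and the second is the peak that the locus was chosen for. All comparisons of ush here include them. Since long genes have more room, ush was also set beside the 319 genes within 1.5-fold of its length. Their median was 0 peaks, 119 had any, and 4 had 6 or more. These were sbb with 9, Raf with 7, and Hr4 and ush with 6 each.

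The surroundings of the strongest peak were set beside those of the 5 next strongest in the list, which lay nearest to CG14100, Chro, Ugalt, CG1888 and Lk6. In windows of the same length centred on each summit, an arrangement chosen after seeing the data, the strongest peak had 6 further reproducible peaks, the nearest 1012 bp away. At CG14100 there were 3 peaks in all and the nearest neighbour was 21646 bp away, at Chro 2 and 15087 bp, at CG1888 2 and 18348 bp, and at Lk6 4 and 17452 bp. Ugalt stood alone. Of these 6 peaks, those at CG14100, Chro, Ugalt and CG1888 were at promoters, between 60 and 223 bp upstream of a TSS, and those at Lk6 and upstream of cbt were in introns. All 6 were narrow, from 332 to 431 bp.

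The same 5 peaks were those whose pair of log2 replicate signals came nearest to that of the strongest peak. Both choices rest on high signal, so they largely had to coincide. The distance was 0.84 for CG14100 (493.7 in replicate 1 and 311.2 in replicate 2), 1.15 for Ugalt (299.0 and 272.7), 1.20 for Chro (330.6 and 250.7), 1.25 for Lk6 (236.2 and 298.7) and 1.27 for CG1888 (226.6 and 304.9), on the log2 scale over the 2 replicates. In Lk6 and CG1888 replicate 2 was higher, as at the strongest peak of the locus, and in the other 3 replicate 1 was higher, on raw signals. After division by the list medians the log2 ratio was 0.06 at both Lk6 and the strongest peak, and −0.03 at CG1888.

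Genes grouped with cbt or ush by family, pathway or process were examined in 7 lists. A gene counted when its body, widened by 1 kb at each end, held a reproducible summit, and 20 of 54 did (37.0%), beside 13.2% of protein-coding genes. The listed genes are long, with a median of 13.0 kb against 2.17 kb overall. Between 3.43 and 27.0 kb, the middle of their range, 8 of 26 listed genes and 790 of 4043 genes in all (19.5%) had a peak. No enrichment was tested. The strongest peaks of the 20 ran from 52.9 to 163.0 with a median of 74.5, all below the 1007 of the strongest peak, and 15 were in introns and 5 at promoters.

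Among GATA factors and partners of ush, 3 of 6 had a peak. They were the GATA factor gene grn (75.4, with 26.1 and 44.5 in replicates 1 and 2), GATAd (75.5) and the corepressor CtBP (63.5, with 12.9 and 37.4). GATAd had 78.5 in replicate 2 and no summit of replicate 1 within 200 bp. The GATA factors pnr, the best known partner of ush, srp and GATAe had no reproducible peak. In the pooled list srp reached 23.2 and GATAe 28.7, and pnr had no region. Of 7 Sp and Krüppel-like factors related to cbt, luna (85.7) and dar1 (52.9) had a peak, both in introns.

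The Dpp pathway, in which both genes act, had 7 of 13. The ligand dpp had a peak of 60.0 and its type I receptor tkv 54.3, both intronic. The transducing Smads stood higher, with Mad at 143.4 (84.3 and 64.5 in replicates 1 and 2) and Med at 163.0 (80.2 and 78.8). The summit counted for Med lay 16 bp upstream of the TSS of another gene, Mnat9. The nuclear factors were brk, a repressor of Dpp targets, with 115.3 (66.6 and 39.0), and shn, its own repressor, with 4 peaks of up to 97.3. The inhibitory Smad Dad had 2, up to 82.3. The ligands gbb and scw, the receptors sax and put, and the extracellular regulators sog and tsg had none.

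In the list of JNK signalling and dorsal closure, 4 of 10 had a peak. The TNF ligand egr had 110.9 (43.5 and 66.2), the kinase msn 70.8, the AP-1 subunit kay 73.6 and the phosphatase puc 65.9. The summit counted for egr lay nearest to a snoRNA gene. The kinases slpr, hep and bsk, the AP-1 subunit Jra, and raw and zip had none. In sugar sensing, bigmax (the partner of Mondo, listed as Mlx) had a promoter peak of 55.7, 27 bp upstream of its TSS, while Mondo and sug had none. Of 8 clock genes, the transcription factors vri (55.7) and Pdp1 (61.4) had promoter peaks, and for Pdp1 replicate 1 gave no summit within 200 bp. Of 7 genes of blood cell formation, the receptor N alone had peaks, 2 of up to 109.4. Across the lists the summit lay nearest to the gene's own TSS for 12 of the 20 genes.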

How the data were processed

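Chromatin of the ab-eGFP embryos was sonicated, per the labels, to fragments of 200 to 800 bp. According to the deposited description files, the authors called relaxed regions for each replicate and for the pool of both against a control, and derived reproducible peaks with the irreproducible discovery rate (IDR) method. The aligner, the caller and any cut-offs are not given in the sources used here. For every region, the deposited signal is the authors' score of each region, and it was used only to rank and describe regions within a list. The deposited −log10 q-values share a ceiling of 3.38 at 1213 pooled regions and were not used to rank. Replicate lists stop at 30000 regions, and typical region widths are 384 bp (replicate 1), 600 bp (replicate 2) and 510 bp (pooled), which can shift summits. Depth was unknown. The reproducible list holds the 1664 strongest pooled regions, so it follows the pooled signal.

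From these files, summits (1-based, dm6) were assigned to genes and TSSs of Ensembl release 115, and sequence was read from the RefSeq assembly, within whose chromosome lengths all regions ended. A summit within 500 bp of a TSS was a promoter peak; otherwise exon classes came before introns. Replicates were matched by summits within 200 bp. Adjoining windows of the locus length covered the main arms. Motif windows had 50 bp either side of the summit, with 100 bp as an alternative. For GGGTAT, a word added later, 150 bp was used. No test was run, because the locus was chosen on its signal. The members, lists and motifs were chosen with earlier results of these data known. The genes named are cbt, ush, their window neighbours, those at the 5 strongest and the 5 most alike peaks elsewhere, and every listed gene with a peak. Other genes, among them those without a peak and cold, sbb, Raf and Hr4, were named after their values were seen. Of 55 listed symbols 54 matched the annotation, 52 of them directly; col was not matched and is listed as kn. Alternatives were other windows, lists, matching rules, promoter widths, scalings and the dm3 lists, without converting coordinates. Matching and motif searches were tested on simulated data. Python 3.11.15, numpy 2.4.6, pandas 2.3.3 and matplotlib 3.10.9 were used.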

Additional observations from a re-analysis of the deposited data

How the results depend on the processing

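Of 49 alternative values, 40 stayed within the tolerance (1.5-fold for counts and ratios, 1 SD between replicates for log2 ratios), 8 moved beyond it and 1 reversed. The log2 ratios could not move beyond it, because each other scaling shifted all 7 peaks alike and by less than 1 SD. Their place among the 40 is therefore no sign of stability. Within that tolerance the log2 ratio of the replicates at the strongest peak still changed sign with the scaling, from 0.06 to −0.34 on raw signals and −0.25 with medians of the matched peaks. The reversed value was the signal of the strongest region over the next, 1.25 on the pooled list and 0.882 in replicate 1 alone, and leaving out either replicate gave 0.882 to 1.77. The rank of the strongest region was then 1 to 2, with rank 2 in replicate 1 on dm6 and also on dm3, a list added after seeing the data. The number of reproducible peaks was 7, 3 above the median signal, and 5 with the strongest 1664 regions of either replicate alone. Those 5 were not the same in both replicates. The peaks at 472453 and 481067 were in both sets. Replicate 1 also had those at 480055, 516144 and 522120. Replicate 2 also had those at 485819 and 490281 and its unmatched region at 490703. The number at promoters was 2 and with promoters of 200 bp it was 0. With motif windows of 100 bp, 6 peaks held a fixed motif in place of 2. By summed signal 1 window reached the locus, in place of 14 by number of peaks, and that window overlaps the locus. Without the windows that overlap it, a setting added after seeing the data, the counts were 0 by summed signal and 13 by number of peaks. Summed signal includes the peak that the locus was chosen for. With peaks above the median signal, 10 related genes had a peak in place of 20. The cause of these differences was not tested. No paired analysis was possible because the samples form 1 group and no test was run. With 2 replicates, no control track and unknown depth, weak regions near the ends of the lists cannot be separated from background.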
